A study of Mus musculus with 3 samples.

Results

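Among Ly6Chi monocytes sorted from acetaminophen-injured mouse livers, the cells described here carried much MHC class II RNA and little or no C1q RNA. They were chosen by their own counts. UMIs (unique molecular identifiers) count captured transcripts. Barcodes were retained from 500 genes upward when mitochondrial transcripts made up no more than 10% of their UMIs, and a retained cell was taken when H2-Aa, H2-Ab1 and H2-Eb1 together held 15 or more UMIs per 10000 UMIs of the cell. It also had to hold at most 1 UMI in C1qa, C1qb and C1qc together, and to show at most 2 of the 6 genes Ace, Adgre4, Spn, Treml4, Ear2 and Ceacam1, which mark patrolling monocytes. There were 916 such cells among 16021 retained cells. Because the rule used class II, C1q and patrolling genes, the levels of all genes in these cells against the other cells are given as a description, with no test.

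The study compared sorted liver Ly6Chi monocytes of LysMDCommd10 and Commd10fl/fl mice, to learn how loss of the endosomal sorting protein COMMD10 changes monocytes that enter an injured liver. All mice were male, on the C57BL/6 background and 8 weeks old, and after a 12 h fast each was injected intraperitoneally with acetaminophen at 300 mg/kg. Monocytes were sorted 24 h later in both groups, so no uninjured liver is part of the comparison. The LysMDCommd10 group is 1 library, here called knockout 4, and the Commd10fl/fl group is 2 libraries, control 1 and control 3. The LysM-Cre driver sits at the Lyz2 locus and acts in neutrophils and macrophages as well as monocytes. Nothing in the labels ties a library to 1 animal or to a pool, so the p-values reflect the spread among the libraries alone, part of which may be technical.

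MHC class II molecules are pairs of an alpha and a beta chain, encoded in mice by genes such as H2-Aa, H2-Ab1 and H2-Eb1, that show peptides from taken-up proteins to CD4 T cells. The invariant chain Cd74 escorts them to endosomes, H2-DM (H2-DMa and H2-DMb1) helps load the peptide, and the coactivator CIITA switches the whole set on through factors bound at X and Y boxes in their promoters. Monocytes that enter inflamed tissue can gain class II and mature toward macrophages or toward cells that resemble dendritic cells.

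The class II genes of the rule sit side by side on chromosome 17 (GRCm38), with H2-Aa at 34282744 to 34287823, H2-Ab1 at 34257689 to 34269419 and H2-Eb1 at 34305867 to 34316674, whole genes in GENCODE M21. Promoter stretches of 3 class II genes are shown, from 130 to 31 bases before the RefSeq start site (RefSeq, GRCm38.p6). H2-Aa and H2-Eb1 are genes of the rule, which set their high level in these cells, and H2-DMb1 is not. The stretches lie at chr17:34287854-34287953 on the minus strand, chr17:34305737-34305836 on the plus strand and chr17:34153061-34153160 on the plus strand. Capitals mark TGATTGG, which holds the inverted CCAAT letters of the Y box, and TGATGAT, which occurs in X boxes.
H2-Aa: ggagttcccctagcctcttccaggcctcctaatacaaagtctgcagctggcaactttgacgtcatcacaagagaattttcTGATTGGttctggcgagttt
H2-Eb1: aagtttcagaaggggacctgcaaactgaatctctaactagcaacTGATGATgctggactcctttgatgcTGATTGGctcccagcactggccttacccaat
H2-DMb1: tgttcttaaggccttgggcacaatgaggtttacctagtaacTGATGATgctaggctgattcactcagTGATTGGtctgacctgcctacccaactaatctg
TGATTGG lay in all 3 stretches shown, and TGATGAT lay upstream of it, without overlap, in those of H2-Eb1 and H2-DMb1. H2-DMa also had a RefSeq promoter, which is not shown, and no match to either sequence is given for it. The 3 stretches are therefore not all the class II promoters at hand. Searched on both strands of 32851 RefSeq promoters, each running from 250 bases before to 50 after the start, TGATTGG was found in 7.82%, TGATGAT in 3.58% and both in 0.277%. These windows are longer than the stretches shown, so the shares do not apply to stretches of that length. A match is a description of the letters and does not show binding.

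The knockout library held 234 such cells of 4457 retained cells (5.25%, exact Clopper-Pearson 95% interval 4.61 to 5.95%). Control 1 held 182 of 4115 (4.42%, 3.82 to 5.10%) and control 3 held 500 of 7449 (6.71%, 6.15 to 7.30%). The knockout share lay between the 2 controls, and 1 library against 2 cannot give an exact permutation p below 1 in 3, so no test was made. Intervals cover counting error only. Since the rule has limits in absolute UMIs and the knockout library was the shallowest (median 6865 UMIs per retained cell, against 8770 in control 1 and 8160 in control 3), each cell was also thinned to 3000 UMIs before the rule was applied. The shares were then 6.81% in knockout 4, 6.27% in control 1 and 10.2% in control 3, with 757, 527 and 713 shallower cells left out. The knockout share again lay between the controls.

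**Figure D1:**
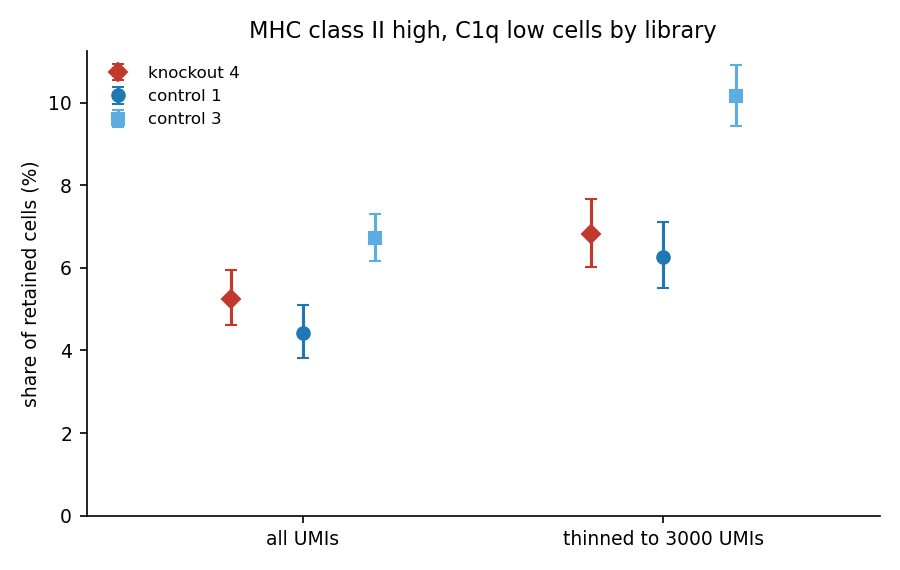
Share of retained cells that are MHC class II high and C1q low, in percent, for each library with all UMIs and after thinning each cell to 3000 UMIs. Points are shares and bars exact Clopper-Pearson 95% intervals; knockout 4 (5.25%) lies between control 1 (4.42%) and control 3 (6.71%), and it does so after thinning too.

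Among cells that met the class II minimum and showed at most 2 patrolling genes, the C1q low cells made up 48.1% in knockout 4 (95% interval 43.6 to 52.7%), 48.9% in control 1 (43.7 to 54.1%) and 54.3% in control 3 (51.0 to 57.5%). The rest of those cells, with 2 or more C1q UMIs, numbered 252, 190 and 421. The median class II level of the C1q low cells was 52.6 UMIs per 10000 in knockout 4, 52.9 in control 1 and 55.3 in control 3, and their median depth was 6187.5, 6111.5 and 7119 UMIs. Just inside the class II limit, 29, 22 and 45 cells held 15 to under 20 class II UMIs per 10000, and just outside it 51, 35 and 75 cells held 10 to under 15. Cells with exactly 1 C1q UMI numbered 52, 40 and 109, and 22, 19 and 29 cells missed the rule by holding 2. Cells with 2 patrolling genes numbered 69, 55 and 147, and 60, 46 and 129 missed it by showing 3.

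Marker lists did not single out 1 cell type. At least 3 of 14 Ly6Chi monocyte markers were detected in 97.4% of the cells of knockout 4, 91.8% in control 1 and 97.8% in control 3. The same held for 99.5, 98.3 and 99.6% of the cells under the class II minimum, so this share does not tell the classes apart. At least 3 of 16 macrophage markers were detected in 92.7, 87.4 and 94.0% of the cells described here, and at least 3 of 12 markers of monocyte-derived dendritic cells in 64.5, 70.9 and 77.6%. Among cells under the class II minimum these shares were 94.3, 96.5 and 94.9% for macrophage markers and 53.1, 56.6 and 66.8% for monocyte-derived dendritic cell markers. Among class II high cells with 2 or more C1q UMIs the latter shares were 71.8, 78.9 and 78.9%, so they were not particular to these cells. Against all other cells, 12 of 14 Ly6Chi monocyte genes were lower in all 3 libraries (24.5% of all genes measured were). Higher in all 3 were 8 of 13 macrophage and 8 of 11 monocyte-derived dendritic cell genes (17.1% were). The last list holds Hpgd, Tmem176b and Tspan13, which are also label markers of these cells, so part of its count was built in. The name monocyte therefore rests on the sort and on the presence of genes such as Ccr2, and the cells are named here by the rule.

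Ccr2, the receptor with which monocytes leave the bone marrow, stood at 764 CPM (UMIs per 1000000 UMIs, both summed over the cells of a library) in knockout 4, 943 CPM in control 1 and 878 CPM in control 3. In all other retained cells it stood at 872, 892 and 957 CPM. Among genes that mark conventional and plasmacytoid dendritic cells, Zbtb46, Siglech and Flt3 were few in UMIs. Zbtb46, a transcription factor of conventional dendritic cells, had 0 CPM in knockout 4 and in control 1 and 1.76 CPM in control 3, and Siglech, of plasmacytoid dendritic cells, had 0 CPM in all 3 libraries. Flt3, a growth factor receptor of dendritic cells, stood at 0.779, 7.45 and 8.78 CPM, and Cd209a, a lectin of monocyte-derived dendritic cells, at 3.90, 10.2 and 48.3 CPM, both lowest in knockout 4. In other cells Flt3 stood at 0.879, 1.07 and 4.35 CPM and Cd209a at 0.422, 0.835 and 2.79 CPM, both again lowest in knockout 4. Cd209a was higher in these cells in every library, but on few UMIs: 5 in knockout 4, 11 in control 1 and 165 in control 3. Flt3 had 1, 8 and 30 UMIs. Of 7 conventional dendritic cell core genes measured, 3 were above other cells in all 3 libraries and 0 below, beside 17.1% and 24.5% of all genes. For type 2 conventional dendritic cells 4 of 8 were above and 0 below, and for type 1, 0 of 6 were above and 0 below. The 4 plasmacytoid dendritic cell markers measured summed to 161, 149 and 97.7 CPM, against 98.3, 93.8 and 96.2 CPM in other cells. Of these, 1 was above and 1 below in all 3 libraries. The former, Ly6d, stood at 62.3, 57.7 and 10.2 CPM, and at 0 CPM without cells with B cell markers. The 12 mature dendritic cell markers summed to 478, 443 and 402 CPM, and at least 3 of them were detected in 2, 6 and 11 cells. Cd63, which is also in the macrophage list, held 371, 330 and 219 CPM of this. The 7 markers with enough UMIs to measure summed to 477, 439 and 395 CPM, against 290, 300 and 207 CPM in other cells. Of these, 5 were above other cells in all 3 libraries and 0 below. Clec4f and Timd4, markers of resident Kupffer cells, were at 0 CPM in every library. The 2 of 9 listed Kupffer cell markers with enough UMIs to measure summed to 42.1, 27.9 and 20.8 CPM, against 16.1, 16.9 and 11.6 CPM in other cells. Of these, 1 was above other cells in all 3 libraries. At least 3 of the 9 were detected in 0 cells of each library.

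A few cells looked like B cells, which also carry class II. At least 3 of 10 B cell markers were detected in 9 of 234 cells of knockout 4, 13 of 182 of control 1 and 9 of 500 of control 3. Without these 31 cells Ccr7, a receptor of migrating dendritic cells and lymphocytes, stood at 0 CPM in knockout 4 and in control 1 and at 4.44 CPM in control 3, beside 10.1, 16.8 and 9.36 CPM with them. Ighm, the mu heavy chain of antibodies, stood at 110, 92.2 and 64.6 CPM with them and was lower in every library without them. The summed erythroid markers stood at 16.4 CPM in knockout 4, 0.931 CPM in control 1 and 1252 CPM in control 3, and 4228 of the 4279 erythroid UMIs of control 3 came from 1 cell. At least 3 hepatocyte markers were detected in 10, 5 and 72 cells of knockout 4, control 1 and control 3. Barcode sequences found in more than 1 library numbered 8 for knockout 4 with control 1, 24 for knockout 4 with control 3 and 26 for the 2 controls, and 1, 0 and 1 of the cells described here had one.

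Beyond the genes of the rule, the class II pathway stood out. Among 2844 genes that reached 50 CPM in these cells or in the other cells of every library, 6 (0.211%) were over 1 log2 unit higher in these cells than in all other retained cells of every library, and these were Cd74, H2-DMb1, Ciita, H2-DMa, Slamf7 and Tmem176a. Cd74 (chromosome 18, 60803848 to 60812652) stood at 10216 CPM in knockout 4, 9008 CPM in control 1 and 10441 CPM in control 3, against 1687, 1495 and 1972 CPM in other cells. Ciita (chromosome 16, 10480059 to 10528418) stood at 72.5, 122 and 92.1 CPM, against 18.9, 18.6 and 23.8 CPM in other cells. Of 24 class II presentation genes measured outside the rule, 12 were above other cells in all 3 libraries and 3 below, beside 17.1% above and 24.5% below over all 10643 genes measured. Their median log2 ratio was 0.27, beside -0.03 over all genes. Cd74 and Ciita were higher in these cells in every library, with log2 ratios of 2.40 to 2.60 for Cd74 and 1.88 to 2.65 for Ciita.

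H2-DMb1, the beta chain of the peptide loader, stood at 349, 469 and 503 CPM in knockout 4, control 1 and control 3, against 82.0, 102 and 120 CPM in other cells. H2-DMa, its alpha chain, stood at 276, 381 and 443 CPM, against 116, 183 and 204 CPM. Slamf7, a cell surface receptor of the SLAM family, stood at 70.9, 103 and 111 CPM, against 34.1, 41.9 and 51.9 CPM. Class II high cells with 2 or more C1q UMIs held 83.2, 84.8 and 121 CPM of it. Tmem176a, a membrane protein abundant in monocyte-derived dendritic cells, stood at 270, 233 and 274 CPM, against 116, 97.4 and 134 CPM. Hpgd, a prostaglandin-degrading enzyme, and the tetraspanin Tspan13 differed less, with log2 ratios of 0.63, 0.81 and 0.23 for Hpgd and 0.31, 1.06 and 0.15 for Tspan13 in knockout 4, control 1 and control 3.

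Next in order came Cxcl16, Axl, Tmem176b, Ighm, Lgals3bp, Id3, Il1rn, Got1 and Clec4n. The place of Ighm rests on the cells with B cell markers: without them it stood at 18.4, 24.9 and 34.9 CPM, against 17.6, 38.1 and 36.9 CPM in other cells, and so was below other cells in both controls. Axl, a receptor for dead cells, stood at 97.4, 137 and 105 CPM, against 34.5, 74.4 and 50.4 CPM in other cells. Cxcl16, a chemokine held at the cell surface, stood at 158, 182 and 166 CPM, against 69.8, 87.1 and 87.2 CPM. Cells over the same class II minimum with 2 or more C1q UMIs, whose median class II level was 75.5, 49.4 and 65.7 UMIs per 10000, held more of both, with 120, 163 and 140 CPM of Axl and 194, 203 and 217 CPM of Cxcl16. Of 21 MHC class I presentation genes, 16 were above other cells in all 3 libraries, beside 17.1% of all genes measured. Their median log2 ratio was 0.22, beside -0.03 over all genes. Apoe, a lipid carrier of macrophages, stood at 6380, 4733 and 7802 CPM, against 3668, 3743 and 5147 CPM in other cells. Itgax, the integrin CD11c, stood at 89.6, 104 and 43.9 CPM, against 47.8, 45.2 and 25.9 CPM. Cd86, a costimulator of T cells, stood at 204, 122 and 163 CPM, against 148, 90.2 and 112 CPM. All 3 genes were higher in these cells than in all other cells within every library, although their ranges over the libraries of both classes overlapped for Apoe, Itgax and Cd86. They were not particular to these cells. In class II high cells with 2 or more C1q UMIs, Apoe stood at 9664, 6674 and 8795 CPM. Itgax stood there at 94.1, 74.9 and 61.3 CPM and Cd86 at 224, 134 and 155 CPM. Cx3cr1 stood at 203, 412 and 307 CPM, against 146, 360 and 302 CPM, and its log2 ratio in control 3 was 0.02.

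Genes of early and neutrophil-like monocytes ran the other way. Over 1 log2 unit lower in every library were 7 of the 2844 genes (0.246%): Lcn2, I830127L07Rik, Mmp8, Vcan, Mgst1, Slpi and Hp. Lcn2, an iron-binding protein of granules, stood at 22.6 CPM in knockout 4, 28.9 CPM in control 1 and 34.5 CPM in control 3, against 279, 135 and 116 CPM in other cells. Hp, haptoglobin, stood at 218, 219 and 374 CPM, against 622, 530 and 810 CPM. The surface antigen gene Ly6c2 stood at 347, 222 and 449 CPM, against 601, 491 and 616 CPM. Of the neutrophil-like monocyte list 16 of 17 measured genes, and of the Ly6Chi monocyte list 12 of 14, were below other cells in all 3 libraries, beside 24.5% of all genes measured. In Ly6c2, Hp and Lcn2 the ranges of these cells and of other cells did not overlap. Hp and Lcn2 were picked for their low ratios, so this is no further result for them. The share of all genes whose ranges did not overlap was not counted. Class II high cells with 2 or more C1q UMIs were also low in these genes, with 27.3, 5.57 and 30.5 CPM of Lcn2, 192, 188 and 258 CPM of Hp and 213, 190 and 282 CPM of Ly6c2.

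**Figure D2:**
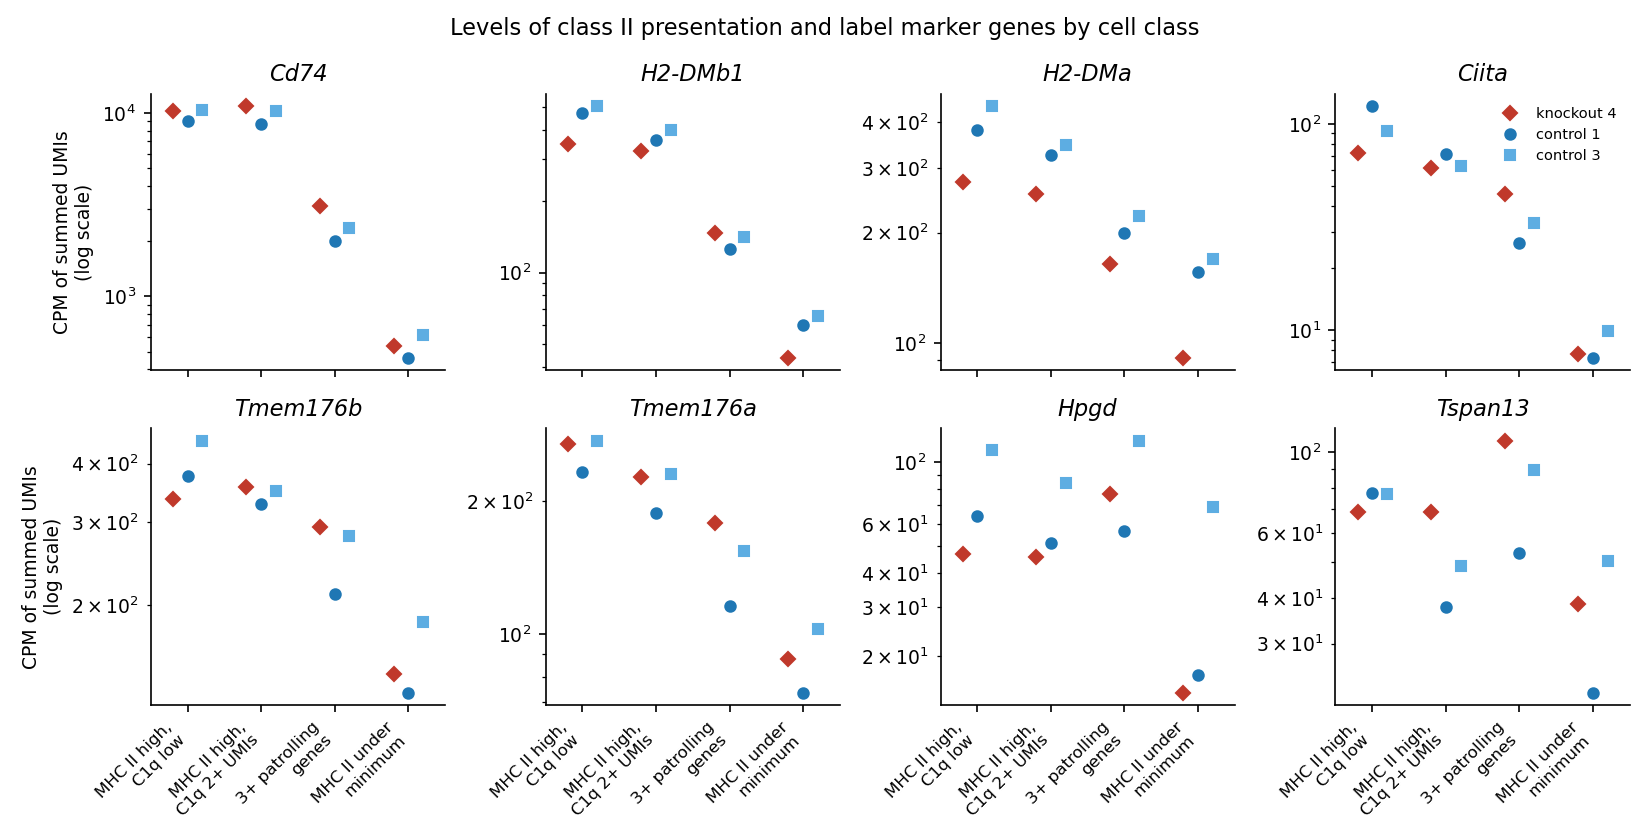
Levels (CPM of UMIs summed over a class, log scale) of 4 class II pathway genes and of Tmem176b, Tmem176a, Hpgd and Tspan13, with 1 point per library. Shown are the MHC class II high, C1q low cells and 3 other classes. Cd74, H2-DMb1, H2-DMa and Ciita are high in both class II high classes, while Hpgd and Tspan13 differ less between classes.

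Within the cells themselves the pathway graded with class II level. With the B cell marker cells left out, cells with 15 to under 30, 30 to under 60 and 60 or more class II UMIs per 10000 numbered 63, 65 and 97 in knockout 4, 55, 46 and 68 in control 1, and 123, 136 and 232 in control 3. H2-DMb1 stood at 249, 317 and 456 CPM in these 3 bins of knockout 4, at 315, 463 and 657 CPM in control 1, and at 322, 469 and 645 CPM in control 3. Ciita reached 101 CPM in the highest bin of knockout 4, 162 CPM in control 1 and 128 CPM in control 3, and its lowest bin stood at 41.1, 101 and 52.9 CPM. H2-DMa and H2-DMb1 climbed across all 3 bins in each library, whereas Ciita was lower in the middle bin than in the lowest in control 1. Hp stood at 350, 216 and 128 CPM in knockout 4, 276, 162 and 224 CPM in control 1, and 497, 456 and 251 CPM in control 3, highest in the lowest bin of each library. Ccr2 showed no such order.

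**Figure D3:**
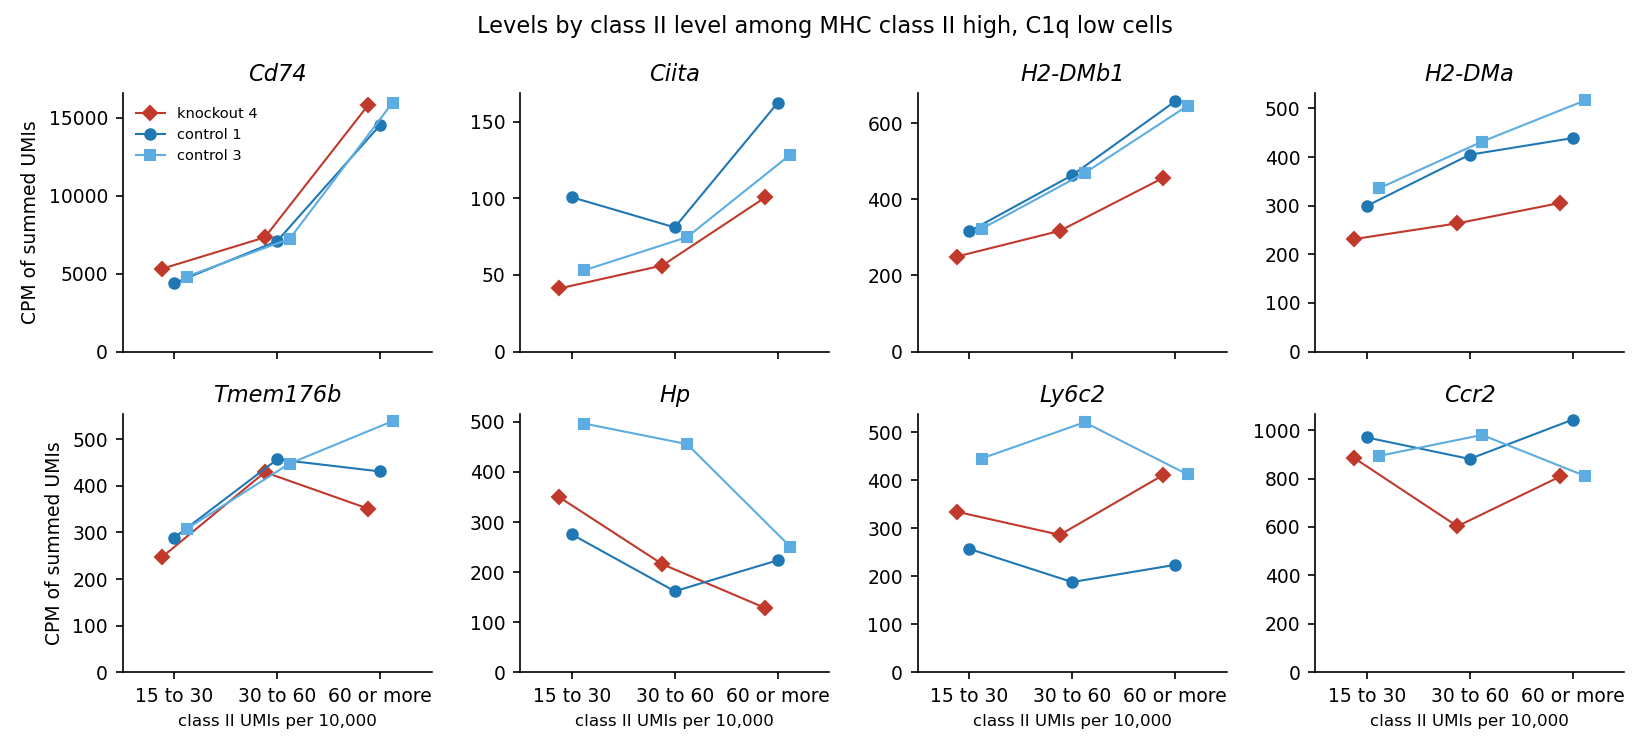
Levels (CPM of summed UMIs) of 8 genes across 3 bins of class II level within the MHC class II high, C1q low cells, cells with B cell markers left out, with 1 line per library. Cd74, H2-DMb1 and H2-DMa climb with class II level in all 3 libraries, Hp is highest in the lowest bin, and Ly6c2 and Ccr2 have no common order.

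The comparison of knockout with control within these cells was tested with edgeR on the UMIs summed per library. Commd10 itself (chromosome 18, 46958816 to 47234284) had 5 UMIs in knockout 4, 19 in control 1 and 43 in control 3, or 3.90, 17.7 and 12.6 CPM. Knockout 4 was below both controls, with a log2 fold change of -1.84 ± 0.64 (SE) that did not pass (edgeR, adjusted p = 0.461), and the value was 0.51 after thinning each cell to 3000 UMIs. A 3' tag may lie outside the deleted part, so this does not check the deletion. Lyz2 (chromosome 10, 117277331 to 117282321), which encodes lysozyme and is the site of the Cre driver, had 5205 CPM in knockout 4, against 12221 CPM in control 1 and 9641 CPM in control 3. It fell by 1.05 ± 0.16 on the log2 scale (edgeR, adjusted p = 0.00533).

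Of 8565 genes tested in these cells, 41 (0.479%) were higher in the knockout library and 6 (0.0701%) were lower at an adjusted p under 0.05. The higher genes with the smallest p were Cxcl3, Ccl24, Hilpda, Egln3 and Srgn, and 12 of the 41 belong to the glycolysis and hypoxia list. The lower ones were Lyz2, Cxcl9, Ccnd1, Gdf15, Lsp1 and Rps29. DESeq2 called 9 higher and 2 lower, 11 genes in all, each also called by edgeR: Ccl24, Hilpda, Egln3, Srgn, Sdc4, Slc16a3, Cd36, Tpi1 and Cd14 higher, and Cxcl9 and Lyz2 lower. With each cell thinned to 3000 UMIs, or with no filter on low counts, edgeR called 0 genes in either direction, while 285 and 648 genes had an unadjusted p under 0.05.

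Cxcl3, a chemokine that draws neutrophils (chromosome 5, 90786103 to 90789600), had 277 CPM in knockout 4, against 14.9 CPM in control 1 and 3.22 CPM in control 3. The log2 fold change was 5.41 ± 0.40 (edgeR, adjusted p = 1.31e-05), and 4.17 without control 3. Its 356 UMIs in knockout 4 lay in 25 of 234 cells, and 10 cells held 94.7% of them. The other neutrophil chemokine called, Cxcl2, stood at 1409 CPM in knockout 4, against 787 and 625 CPM in control 1 and control 3, a log2 fold change of 1.02 ± 0.17 (edgeR, adjusted p = 0.0107). Ccl24, which attracts eosinophils, stood at 648 CPM, against 149 and 145 CPM, a log2 fold change of 2.16 ± 0.18 (edgeR, adjusted p = 3.26e-05). Of 16 chemokine genes tested, 3 rose and Cxcl9 fell, beside 0.479% and 0.0701% of all genes tested. Their median log2 fold change was -0.04, beside -0.01 over all genes tested.

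Genes of glycolysis and hypoxia held the most calls of the lists examined. Of 26 tested, 12 rose and none fell, beside 0.479% and 0.0701% of all genes tested. Of the 26, 25 lay above both controls, where 33.5% of all genes tested did. Their median log2 fold change was 0.88. Hilpda, a lipid droplet protein induced by low oxygen, stood at 139 CPM in knockout 4, against 23.3 CPM in control 1 and 29.0 CPM in control 3, a log2 fold change of 2.37 ± 0.23 (edgeR, adjusted p = 0.000133). Egln3, an oxygen-sensing prolyl hydroxylase, stood at 53.0 CPM, against 6.52 and 5.27 CPM. The glucose transporter Slc2a1 stood at 130 CPM, against 46.6 and 50.6 CPM, and the lactate transporter Slc16a3 at 389 CPM, against 123 and 142 CPM. The remaining genes called were Ero1l, Ankrd37, Bnip3, Vegfa, Tpi1, Pgam1, Pgk1 and Ldha. The enzymes Gapdh (log2 fold change 0.54 ± 0.17), Pkm (0.54 ± 0.15) and Eno1 (0.40 ± 0.21) did not pass.

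Arg1, the arginine-degrading enzyme of wound-type macrophages, stood at 1095 CPM in knockout 4, against 223 CPM in control 1 and 78.7 CPM in control 3. Its log2 fold change was 2.95 ± 0.35 (edgeR, adjusted p = 0.000924), and it was 2.34 without control 3 and 3.74 without control 1; DESeq2 did not call it. Srgn, a granule proteoglycan, stood at 3883 CPM, against 1465 and 1599 CPM, a log2 fold change of 1.36 ± 0.15 (edgeR, adjusted p = 0.000372). The syndecan Sdc4 stood at 401 CPM, against 119 and 132 CPM, and the scavenger receptor Cd36 at 215 CPM, against 82.9 and 60.6 CPM. Other genes called, listed after their values were seen, were Smox, Slc7a11, Fam162a, Cd14, Adam8, Sdc1, Spp1, Fn1, F10, Cd9, Il1rn, Clec4n, Egln1, Ctsl, Ednrb, Pgm2, Higd1a, Thbs1, Ftl1-ps1, Fcgr2b and Il7r. Ftl1-ps1 is a pseudogene of the ferritin light chain, and its reads may come from the parent gene. Iglc1, an antibody light chain, was also called, but its 50 UMIs in knockout 4 lay in 3 cells, 43 of them in 1 cell.

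Cxcl9, a chemokine for T cells that interferon gamma induces (chromosome 5, 92321347 to 92328079), had 9.35 CPM in knockout 4, against 49.4 CPM in control 1 and 73.7 CPM in control 3. It fell by 2.75 ± 0.39 on the log2 scale (edgeR, adjusted p = 0.00298). Its UMIs lay in 4 cells of knockout 4, 5 of control 1 and 18 of control 3. Ccnd1, cyclin D1, had 2 UMIs in knockout 4, against 30 in control 1 and 178 in control 3, a ratio to the summed controls of 0.0337 (95% counting interval 0.00405 to 0.123). Gdf15, a stress-induced cytokine, had 10.1 CPM, against 58.7 and 44.8 CPM, and Lsp1, an actin-binding protein of leukocytes, had 269 CPM, against 523 and 615 CPM. The ribosomal gene Rps29 stood at 2646 CPM, against 4480 and 4545 CPM. All 6 genes lay below both controls.

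**Figure D4:**
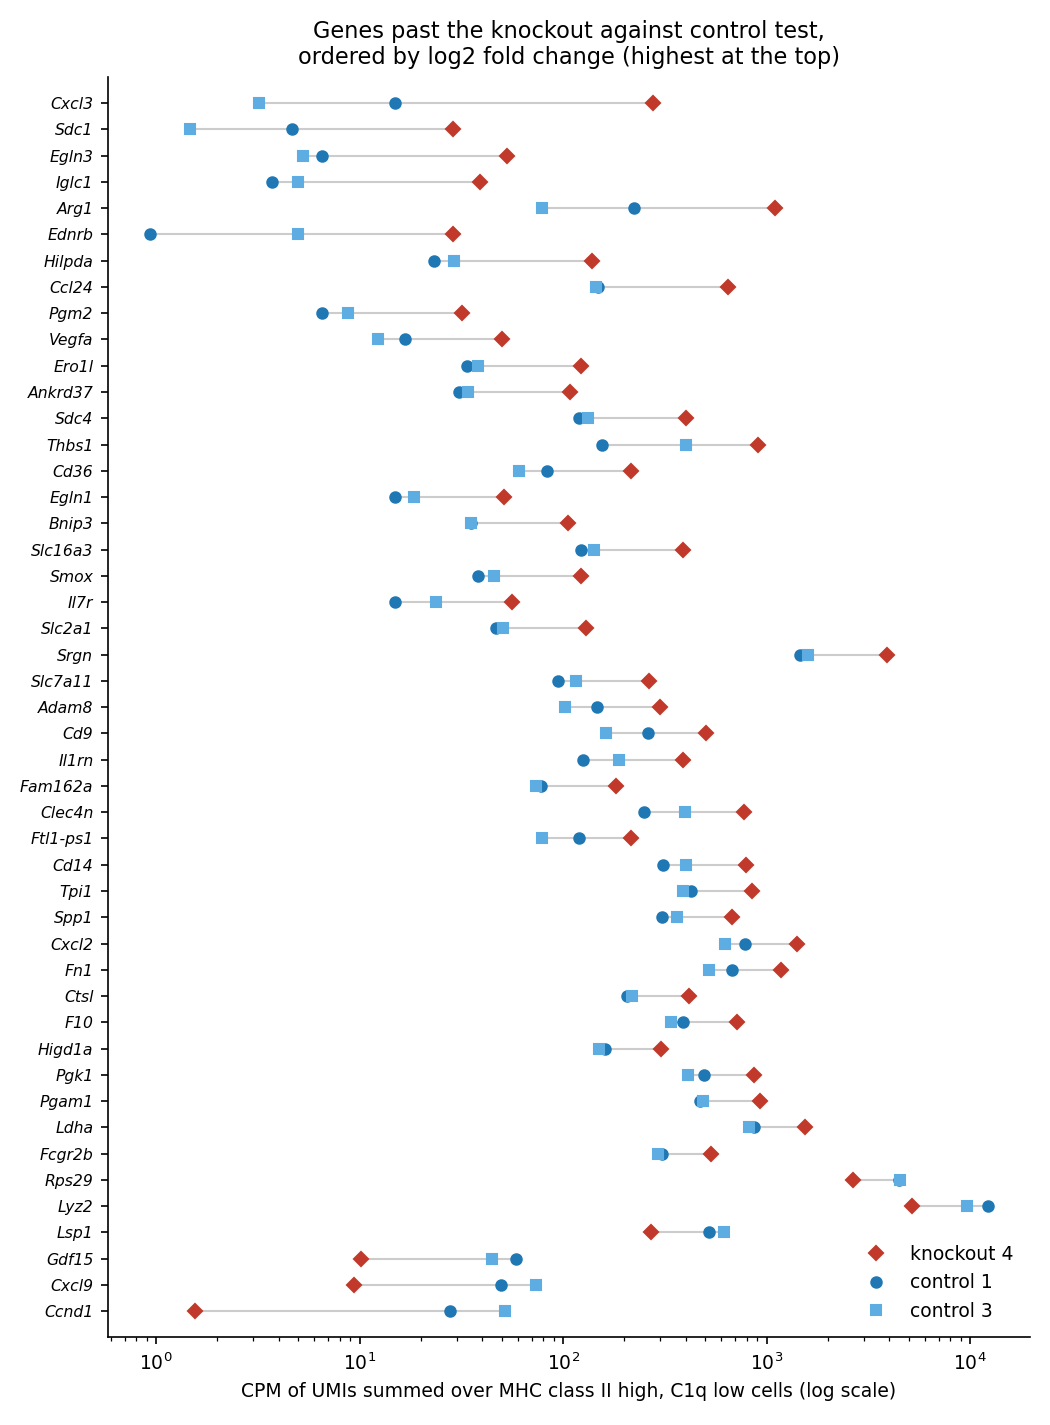
Levels (CPM of UMIs summed over the MHC class II high, C1q low cells, log scale) of the 47 genes that passed the knockout against control test, ordered by log2 fold change, with 1 point per library. Knockout 4 lies above both controls for 41 genes, led by Cxcl3, and below both for 6.

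The summed UMIs of H2-Aa, H2-Ab1 and H2-Eb1 chose the cells in every library, so their levels within the cells are a description with no test. H2-Aa stood at 3067 CPM in knockout 4, against 2635 CPM in control 1 and 3209 CPM in control 3. Cd74, which was not part of the rule, did not pass (edgeR, adjusted p = 0.944). It had a log2 fold change of 0.09 ± 0.14 (SE) that turned to -0.067 without control 1. Its level climbed with the class II level by which the cells were chosen, so this test is not free of the rule. H2-DMa (-0.56 ± 0.20), H2-DMb1 (-0.46 ± 0.18) and Ciita (-0.52 ± 0.24) were below both controls in knockout 4 and did not pass (edgeR, adjusted p = 0.476, 0.586 and 0.686). Of 27 class II presentation genes in the fit, only Ctsl, a protease of endosomes, rose, at 415 CPM, against 205 and 218 CPM. Over all genes tested 0.479% rose and 0.0701% fell. The 27 include 3 genes of the rule, whose levels the rule set, so their not passing is no result. Of 21 class I genes none passed, and their median was -0.17. Of 18 genes induced by interferon gamma, Cxcl9 fell, beside 0.0701% of all genes tested. Of the 18, 10 lay below both controls, where 37.6% of all genes tested did. Gbp2 stood at 12.5 CPM, against 56.8 and 34.5 CPM (edgeR, adjusted p = 0.0888). The monocyte genes Ccr2 (-0.23 ± 0.17) and Ly6c2 (0.04 ± 0.30) did not pass.

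Whether the knockout effect in these cells differed from that in all other retained cells was tested as an interaction over 14458 genes. The difference was positive for 15 genes (0.104%) and negative for 44 (0.304%), and DESeq2 called 3 and 2. The spread of this fit came wholly from its trend over genes, so single genes that vary more than the trend are not allowed for. Of the 47 genes called within the cells, 4 differed from the other cells by this test: Cxcl3, Fn1, Iglc1 and Ccnd1. Several of the called genes were also higher in the other cells of knockout 4. Ccl24 stood there at 775 CPM, against 320 CPM in control 1 and 169 CPM in control 3. Hilpda stood at 136 CPM, against 38.8 and 25.8 CPM, and Arg1 at 1533 CPM, against 367 and 130 CPM. Lyz2 was lower there, at 6518 CPM, against 15405 and 11640 CPM. For these 4 genes the difference between the cells did not pass the interaction test, which does not show that the effects were equal.

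Of the 15 positive calls, 7 were B cell genes and 3 were patrolling genes of the rule, and of the 44 negative calls 4 were erythroid genes. The patrolling genes helped choose the cells, so their calls cannot be read as a result.

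Ifitm1, an interferon-induced membrane protein, gave the 1 difference that passed in all 12 other settings tested. In these cells it stood at 67.0 CPM in knockout 4, against 66.1 CPM in control 1 and 66.1 CPM in control 3, with no separation of the groups. In all other retained cells it stood at 133 CPM in knockout 4, against 31.9 and 33.5 CPM in the controls. The difference of the log2 fold changes was -2.06 ± 0.20 (edgeR, adjusted p = 3.43e-21), and DESeq2 also called it (adjusted p = 3.69e-05). The monocyte-attracting chemokine Ccl2 stood at 503 CPM in knockout 4, against 519 and 512 CPM, in these cells, and at 1020 CPM, against 688 and 476 CPM, in the others. That difference of -0.94 ± 0.10 (edgeR, adjusted p = 2.00e-17) was not called by DESeq2. Ccl7 differed by -1.13 ± 0.14 in the same direction. Class II high cells with 2 or more C1q UMIs are part of the others. They held 31.6 CPM of Ifitm1 in knockout 4, against 51.4 and 20.1 CPM in control 1 and control 3. Ccl2 stood there at 724 CPM, against 972 and 737 CPM, and Ccl7 at 302 CPM, against 569 and 342 CPM. Knockout 4 was not above both controls there, so for these genes the lack of a rise was not particular to the C1q low cells.

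S100a8, a calcium-binding protein of neutrophils and early monocytes, stood at 112 CPM in knockout 4, against 57.7 CPM in control 1 and 168 CPM in control 3, in these cells. In the others it stood at 1326 CPM, against 545 and 251 CPM. The difference was -2.12 ± 0.13, but -0.34 without control 3 and -3.02 without control 1. Saa3 (-1.29 ± 0.17) likewise stood at -0.19 without control 3. Lcn2 differed by -1.78 ± 0.24, and DESeq2 called it (adjusted p = 0.0455). In other cells of the knockout library the 6 measured neutrophil markers, which include S100a8 and Lcn2, summed to 2029 CPM, against 905 and 598 CPM in the controls, and their part in these differences was not tested.

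**Figure D5:**
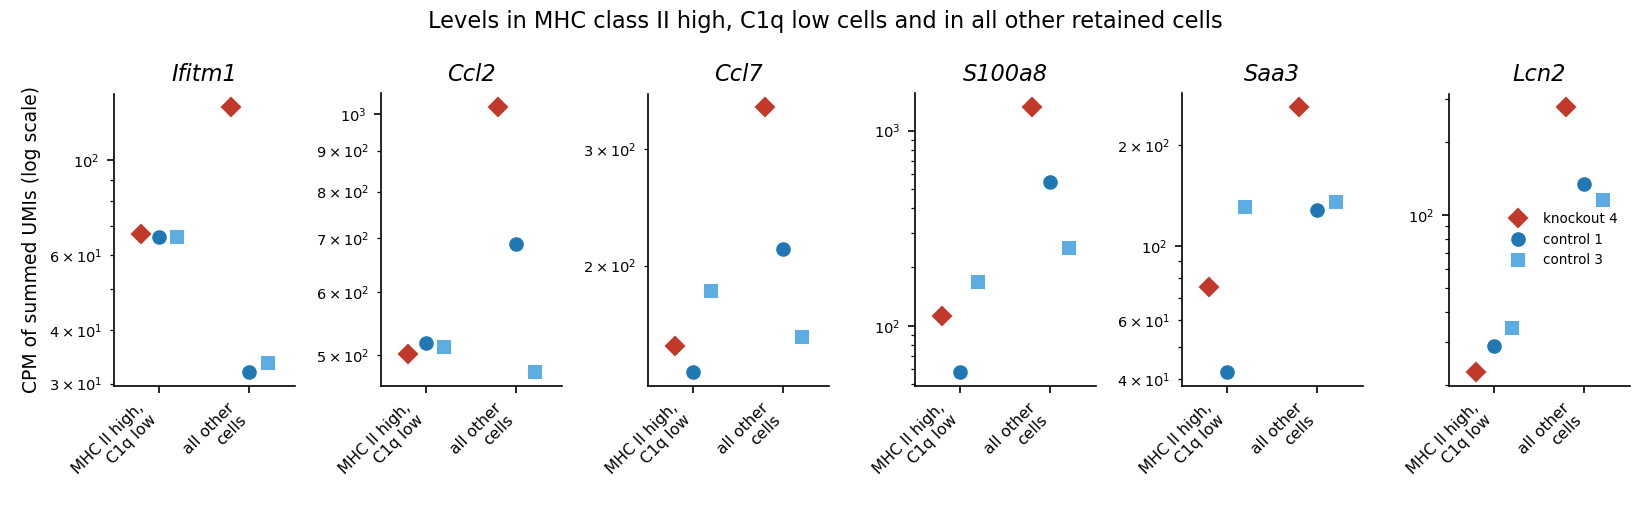
Levels (CPM of summed UMIs, log scale) of 6 genes in the MHC class II high, C1q low cells and in all other retained cells, with 1 point per library. Ifitm1 is alike in all 3 libraries within the cells and highest in knockout 4 among the others summed together. Those with high class II and 2 or more C1q UMIs held 31.6 CPM of it in knockout 4, against 51.4 and 20.1 CPM.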

How the data were processed

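Droplet 3' RNA-seq counts of 3 libraries were used. Per the submitters' processing notes, the authors used bcl2fastq and Cell Ranger 3.0.2 with genome build GRCm38. The deposited values are raw UMI counts for each gene in each barcode, with no barcode under 500 UMIs. There were 5152, 4814 and 8109 barcodes for knockout 4, control 1 and control 3, beside 5229, 4860 and 8149 cells stated by the study, and 30302932, 40092348 and 72867668 UMIs. No deposited cell type annotation was used here. Barcodes with under 500 genes or over 10% mitochondrial UMIs were left out, and 4457, 4115 and 7449 cells remained. No doublet caller was run; 0, 3 and 13 of the cells described exceeded 2 times the median UMI count of their own library. Of 53802 gene IDs, 99.8% were found in GENCODE M21.

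Counts were summed per library, since cells are not replicates, and tested with edgeR 4.0.16 (R 4.3.3): TMM scaling, filterByExpr, two-sided quasi-likelihood tests and Benjamini-Hochberg adjustment over all genes tested, threshold 0.05. With 1 residual degree of freedom, the lone knockout library is assumed to vary like the controls; 13.2 prior degrees of freedom were estimated. The interaction fit held the library as a block. CPM are UMIs per 1000000 summed UMIs. DESeq2 1.42.0 was an alternative. The scripts were tested on simulated data. There the test within the cells recovered 25.9% of changes of 1 log2 unit and 94.2% of changes of 2. The interaction test recovered 2.2% and 82.4%. The members and lists were chosen with earlier results of these data known. Genes were named by rule: the 25 highest and 15 lowest ratios against other cells at 50 CPM or more, genes past each test in order of p (up to 15 a direction within the cells, 10 for the interaction) and the next ones, list members past the test, and a list of class II, monocyte and dendritic cell genes.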

Additional observations from a re-analysis of the deposited data

Results flagged for a closer look

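These genes had a knockout effect that differed between the MHC class II high, C1q low cells and all other retained cells by the interaction test (edgeR, adjusted p under 0.05). Values are log2 fold changes of knockout over control in these cells minus those in the others.

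B cell genes were positive: Igkc at 8.23, Ighm at 1.58, Iglc1 at 10.35, Ly6d at 4.91 and Cd79a at 2.79. Iglc1 had 0 UMIs in other cells of knockout 4, so its size depends on the prior count and is no bound. Leaving out control 1 or control 3 gave 9.26 or 6.87 for Igkc, 7.24 or 6.75 for Iglc1 and 5.06 or 3.08 for Ly6d. Without the 31 cells with B cell markers, Igkc, Ighm, Iglc1 and Cd79a did not pass, and Ly6d was not tested. Treml4 (0.97) and Adgre4 (0.81) are genes of the selection rule, which limited their detection in these cells. The test therefore cannot be read for these 2 genes. Apoe, a lipid carrier of macrophages, differed by 0.28, the fibronectin gene Fn1 by 0.35 and the fatty acid receptor Gpr84 by 1.46; Gpr84 stood at 28.8 CPM in knockout 4, against 10.2 and 16.1 CPM in the controls.

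Haemoglobin genes were negative: Hbb-bs at -8.78, Hba-a1 at -5.48 and Hba-a2 at -4.87, and 1 cell of control 3 held 4228 of its 4279 erythroid UMIs. The remaining negative genes were S100a8 (-2.12), Ifitm1 (-2.06), Ccl2 (-0.94), Ccl7 (-1.13), Saa3 (-1.29), Lcn2 (-1.78) and Tmsb10 (-0.47), an actin-binding peptide.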

How the results depend on the processing

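Counts of genes past the test moved with the settings. Within the cells, genes higher and lower numbered 9 and 2 with DESeq2, 51 and 17 with library totals, 0 and 0 with no filter on low counts, 1 and 0 at a class II minimum of 30, 75 and 26 at a C1q limit of 0 (where, as in the interaction fits, the spread came from the trend alone), 17 and 4 without cells of high UMI count, 0 and 0 thinned to 3000 UMIs, and 54 and 11 without shared barcodes. All 47 called genes kept their sign in every setting that measured them. Leaving out a control leaves 1 library against 1, a value with no test; Cxcl3, Arg1, Ccnd1, Thbs1, Ednrb and Sdc1 then moved by over 1.5 times, Thbs1 to 1.14 or 2.58, Ednrb to 2.28 or 3.94, Sdc1 to 3.55 or 2.42 and Ccnd1 to -4.38 or -3.43.

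The interaction gave, higher and lower, 3 and 2 genes with DESeq2, 10 and 13 at a class II minimum of 30, 9 and 8 at a C1q limit of 0, 4 and 20 without cells of other types, 8 and 15 without cells of high UMI count, 6 and 17 thinned, 9 and 50 without B cell marker cells, and 14 and 25 against cells under the class II minimum. Shared barcodes, B cell marker cells and that last set were added after seeing the data.

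Shares in knockout 4, control 1 and control 3 were 3.84, 3.09 and 5.03% at a class II minimum of 30, 6.39, 5.27 and 7.72% at 10, 4.08, 3.45 and 5.25% at a C1q limit of 0, 6.81, 6.27 and 10.2% thinned, 4.41, 3.55 and 5.79% at 1000 genes, 3.63 and 5.89% in the controls at 5% mitochondrial UMIs, and 7.35% in control 3 without cells of high UMI count. Shares have no leave-one-out value.

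Signs turned for genes that had not passed within the cells, where leaving out control 1 or control 3 gave -0.067 or 0.23 for Cd74, -0.060 or 0.25 for Tmem176a, 0.070 or -0.63 for Ccr7, -0.41 or 0.69 for Ly6c2, 0.98 or -0.17 for Itgax and -0.19 or 0.040 for Napsa. Signs also turned after thinning for Tspan13 (0.34), Commd10 (0.51) and Napsa (0.0075), and at 5% mitochondrial UMIs for Ccr7 (0.087). For the interaction, Igkc turned to -1.98 without other types and -1.85 without B cell marker cells, and Platr17 to -0.13 thinned. Hbb-bs turned to 0.13 without cells of high UMI count, 2.55 thinned and 1.62 without control 3. Hba-a1 turned to 1.12, 0.62, 1.36, 0.70 and 3.30, and Hba-a2 to 1.63, 0.73, 2.92, 1.83 and 2.64, at a class II minimum of 30, a C1q limit of 0, without cells of high UMI count, thinned and without control 3. Without control 1, Hbb-bs, Hba-a1 and Hba-a2 stood at -12.39, -8.65 and -8.28. The causes were not tested. No paired analysis was possible because the groups share no replicate number.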

Other observations

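Several lists were not described above. Of 13 COMMD, CCC and retriever genes tested within the cells none passed, with a median log2 fold change of -0.04. Of 37 type I interferon response genes none passed (median -0.02); Isg15 stood at 208 CPM in knockout 4, against 132 CPM in control 1 and 189 CPM in control 3, and Ly6e at 1309 CPM, against 1285 and 1644 CPM. Of 29 transcription factors of monocyte and dendritic cell fate none passed; Irf8 stood at 215 CPM, against 246 and 220 CPM, and Zeb2 at 1356 CPM, against 1069 and 1108 CPM. Of 27 antigen uptake and pattern recognition genes Cd36, Clec4n and Fcgr2b rose, with a median of 0.24. Over all genes tested 0.479% rose. Among 13 NRF2 and antioxidant genes, Slc7a11, the cystine transporter, rose (263 CPM, against 94.1 and 115 CPM), with a median of 0.40. Cd209a, a lectin of monocyte-derived dendritic cells, stood at 3.90 CPM in knockout 4, against 10.2 CPM in control 1 and 48.3 CPM in control 3, and did not pass (edgeR, adjusted p = 0.204).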
